A study of Homo sapiens with 24 samples.

Results

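The 10 genes described here are genes of retinoic acid metabolism and signalling in SK-MES-1, an established line of human lung squamous carcinoma cells. They are 10 of the 34834 genes with a transcript in the deposited tables: the retinaldehyde dehydrogenases ALDH1A1, ALDH1A2 and ALDH1A3, the retinal reductase DHRS3, the retinoic acid hydroxylase CYP26B1, the binding protein CRABP2 and the receptors RARA, RARB, RARG and RXRA. The set was chosen by the measured levels of ALDH1A3, which was known to fall strongly in these libraries, with the other genes listed around it by function, so the values of ALDH1A3 are given as a description without a test, and counts of genes that passed a test cover the other 9. All 10 genes passed the count minimum. Cells were deprived of growth factors for 3 h in medium without serum and were then left untreated or given 2 ng/ml TGFβ1, and RNA was taken at 0, 8, 24 and 48 h in biological triplicate. This gave 24 libraries in 8 groups of 3, and both arms carry the same deprivation. A single cell line was used, so the groups differ in culture and not in donor.

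Retinol enters cells through carriers such as STRA6, is oxidised to retinal by retinol dehydrogenases, and the ALDH1A enzymes then convert retinal irreversibly to retinoic acid. CRABP2 carries retinoic acid to the nucleus, where an RAR bound to an RXR switches genes with suitable DNA elements from repression to activation. DHRS3 returns retinal to retinol and CYP26 enzymes oxidise retinoic acid, and both are textbook feedback targets of the acid itself. In airway epithelium, retinoic acid is known for holding back squamous differentiation.

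The promoter stretches and the single element below were picked because they belong to the gene the set was built around, to the receptor that rose most under TGFβ and to a receptor gene with a classical retinoic acid response element. They are RefSeq reference sequence of GRCh38.p14, plus strand, 5′ to 3′, and capitals mark retinoic acid half-sites (AGGTCA, its variant AGTTCA, the form GGGTCA and the form GGTTCA, read on either strand). The ALDH1A3 stretch, chr15:100879581-100879812, ends 18 bases before its RefSeq start and holds no half-site. The first RARA stretch, chr17:40308930-40309179, ends at the base before the start of transcript RARA-201 and holds 2 half-sites. The second, chr17:40317995-40318244, lies just before the starts of RARA-204 and RARA-206 and holds none. The RARB element, chr3:25428210-25428226, lies from -53 to -37 relative to a RefSeq start of RARB, and its half-sites point the same way with 5 bases between them.
ALDH1A3 promoter: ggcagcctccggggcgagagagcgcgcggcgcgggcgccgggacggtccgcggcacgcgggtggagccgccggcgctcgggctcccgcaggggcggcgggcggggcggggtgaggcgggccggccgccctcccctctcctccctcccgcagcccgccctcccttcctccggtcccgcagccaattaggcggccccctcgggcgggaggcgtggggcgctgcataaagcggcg
RARA promoter 1: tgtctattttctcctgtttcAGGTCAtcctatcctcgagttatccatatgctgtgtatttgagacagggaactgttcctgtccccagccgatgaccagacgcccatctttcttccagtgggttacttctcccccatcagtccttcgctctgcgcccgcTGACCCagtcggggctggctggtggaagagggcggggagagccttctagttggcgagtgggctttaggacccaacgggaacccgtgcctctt
RARA promoter 2: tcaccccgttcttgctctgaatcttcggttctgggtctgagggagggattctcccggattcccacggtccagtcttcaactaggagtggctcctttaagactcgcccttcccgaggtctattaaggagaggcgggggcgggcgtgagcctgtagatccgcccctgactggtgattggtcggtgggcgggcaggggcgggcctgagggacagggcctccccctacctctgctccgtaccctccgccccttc
RARB element: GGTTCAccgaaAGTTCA

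RefSeq gave 19 promoters for the 10 genes, each from 250 bases before to 50 after a start, among 35116 promoters in all. At least 1 half-site was found in 9 of the 19, against 38.6% of all promoters. The arrangement of the RARB element, called DR5, was found in 1 of the 19 and in 0.0883% of all promoters, and every DR5 match is also counted as half-sites. Half-sites pointing the same way 1 or 2 bases apart were found in none of the 19, against 0.131% and 0.0399% of all promoters. The SMAD motif CAGAC, searched on both strands, was found in 9 of the 19 against 45.3%, the palindrome GTCTAGAC in none against 0.202%, and TATAAA in 1 (CYP26B1) against 11.5%. These matches describe the letters of the windows and say nothing about binding.

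The depth of the libraries ranged from 46613589 to 77964234 estimated counts, with a median of 54120879. Of the squamous markers, KRT5, KRT14, KRT6A and DSG3 stayed at or below 0.102 TPM in every library, while TP63 ranged from 7.69 to 37.5 TPM, PERP from 89.3 to 146 TPM, EPCAM from 21.6 to 37.0 TPM and CDH1 from 0.969 to 5.74 TPM, so the defining keratins of squamous epithelium were at or near 0 in a line labelled squamous. Of the 4 squamous markers high enough to test, 3 passed the F-test described below, against 42.6% of all tested genes. EPCAM was lower with TGFβ at 8, 24 and 48 h, CDH1 was lower at 48 h (-0.35), and TP63 was higher at 8 and 24 h (0.80 and 1.02) and lower at 48 h (-0.49). Markers of other cell types were at 0 (CD3E, MS4A1) or low (up to 4.14 TPM, for PECAM1). Of the 4 tested, 3 passed the F-test, against 42.6% of all tested genes. At 48 h PECAM1 had 2.73 TPM without and 3.42 TPM with TGFβ, and VWF 0.1999 and 0.289 TPM. The other 2 went the other way, PTPRC with 2.01 and 1.64 TPM and CD14 with 1.79 and 0.614 TPM. The part of these markers in the results was not tested. The libraries numbered 2 at 0 and 24 h stood apart from their group in both arms, with chi-square values per gene from 14.7 to 60.5 against their partners (3.17 to 16.8 in all other pairs), and counts are also given without these 4. The codes in the file names separate the arms and, within each arm, 0 and 8 h from 24 and 48 h. What they stand for is not stated, and at 24 and 48 h code and treatment cannot be told apart. Changes within an arm from 0 or 8 h to 24 or 48 h also cross codes, so code and time cannot be told apart there. Comparisons of the arm difference between 8 and 48 h cross codes as well.

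At 0 h, 0 of the 9 tested genes differed between the arms at an adjusted p of 0.01, the threshold used throughout (limma voom; 0.00% of the 17413 tested genes, of which 800 had an unadjusted p under 0.05; 0 of the 9 did). At 8 h, 6 of the 9 differed, 2 higher and 4 lower in TGFβ-treated cells, against 16.4% of all tested genes (9.14% higher, 7.28% lower). At 24 h it was 7 of 9, 3 higher and 4 lower, against 29.4% (15.5% higher, 13.9% lower), and at 48 h 6 of 9, 3 higher and 3 lower, against 32.7% (16.2% higher, 16.5% lower). A moderated F-test over 8, 24 and 48 h called 8 of the 9, against 42.6% (21.0% higher on average, 21.6% lower): RARA, DHRS3 and ALDH1A2 were higher on average, ALDH1A1, RARB, CRABP2, RARG and RXRA were lower, and CYP26B1 was not called. When the change from 0 h was compared instead, which removes an offset between the file-name codes at 8 h, 3 of 9 were called at 8 h (7.91% of all), 6 at 24 h (16.6%), 4 at 48 h (20.7%) and 6 over the time course (25.0%). Without the 4 libraries that stood apart, the counts at 8, 24 and 48 h and over the course were 7, 8, 6 and 9. The shares of all tested genes in that fit are not given here, so these counts cannot be set against them. In bulk RNA, fewer cells expressing a gene and less of its RNA per cell cannot be told apart.

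**Figure D1:**
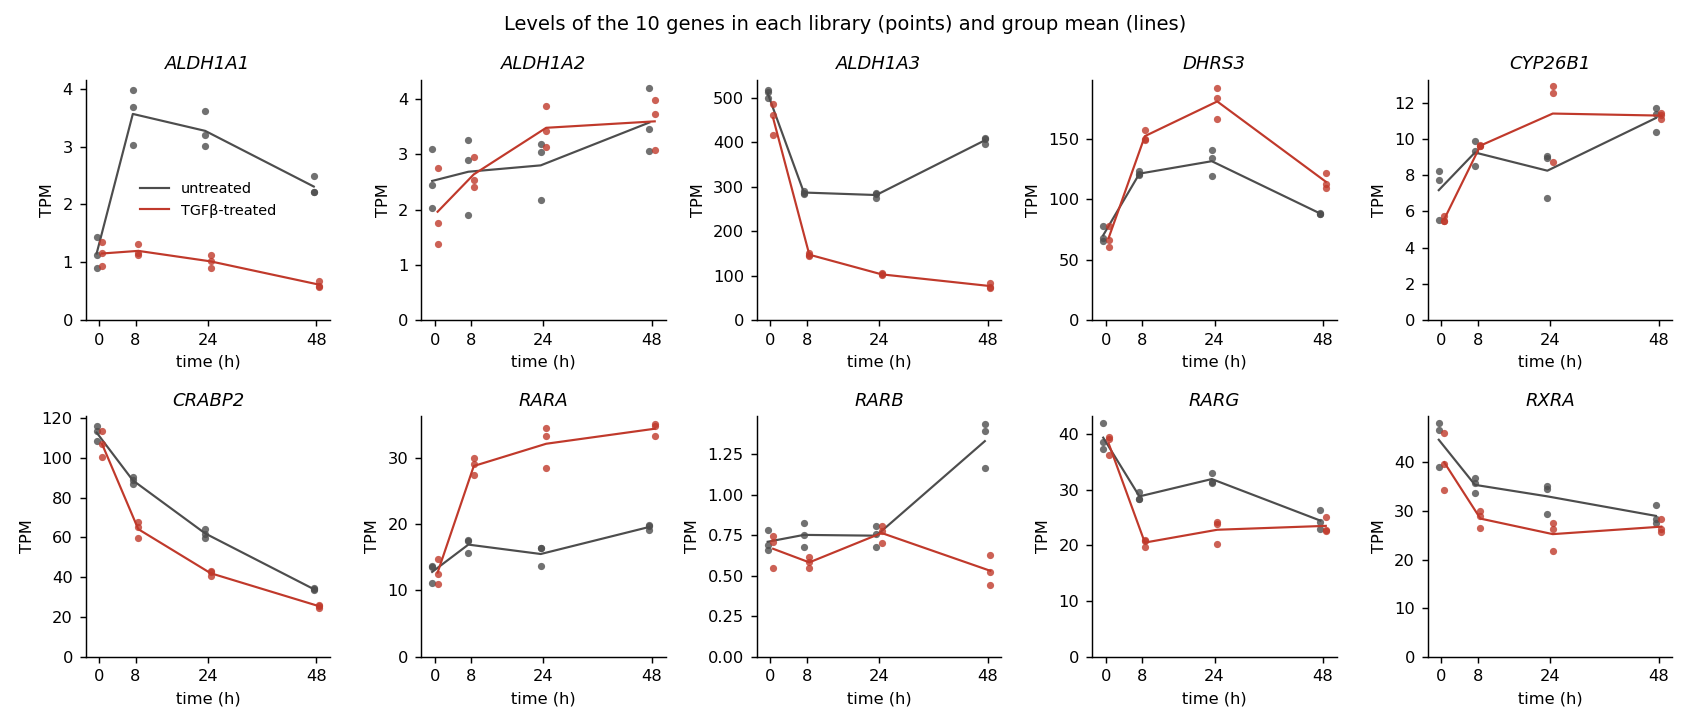
TPM (y axis, linear from 0) against time in hours (x axis) for the 10 genes, with a point per library and a line through the mean of 3 libraries, untreated in grey and TGFβ-treated in red. ALDH1A3 falls from 455 to 76.5 TPM in the TGFβ-treated arm and returns to 405 TPM in untreated cells, and RARA reaches 34.4 TPM with TGFβ against 19.6 TPM without.

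Expression was dominated by ALDH1A3. In untreated cells at 0 h the mean levels per length were 510 TPM for ALDH1A3, 113 for CRABP2, 70.4 for DHRS3, 44.6 for RXRA, 39.4 for RARG, 12.8 for RARA, 7.18 for CYP26B1, 2.52 for ALDH1A2, 1.15 for ALDH1A1 and 0.710 for RARB (TPM, n = 3 each). In this order the libraries of RXRA (39.1 to 48.1 TPM) and RARG (37.4 to 42.1 TPM) overlapped, and those of no other neighbours did. The lowest genes of this order rest on few reads: over all libraries RARB had 35 to 128 estimated counts, ALDH1A2 36 to 105 and ALDH1A1 31 to 315.

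ALDH1A3 (chr15:100877714-100916626, plus strand), the main retinaldehyde dehydrogenase of these cells by level, was lower in both arms at 8 h than at 0 h and then parted. Untreated cells held 499, 518 and 513 TPM at 0 h, 286, 284 and 291 TPM at 8 h, 285, 285 and 274 TPM at 24 h and 407, 411 and 396 TPM at 48 h. TGFβ-treated cells held 416, 486 and 461 TPM at 0 h, 146, 145 and 151 TPM at 8 h, 101, 105 and 103 TPM at 24 h and 71.3, 74.9 and 83.4 TPM at 48 h. The arms overlapped at no time point, 0 h included, where libraries of 6.98% of all tested genes did not overlap. Relative to 0 h of the same arm, the mean level was 0.563 of the start at 8 h and 0.793 at 48 h without TGFβ, and 0.324 and 0.168 of the start with it. Untreated levels were therefore 1.95, 2.73 and 5.28 times those of TGFβ-treated cells at 8, 24 and 48 h. On the log2 scale of the fit the differences were -0.09 at 0 h, -0.93 at 8 h, then -1.44 (24 h) and -2.42 (48 h), with standard errors of 0.03 to 0.033; being the reason for the choice of genes, they carry no test.

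ALDH1A1 (chr9:72900671-73080442, minus strand), a retinaldehyde dehydrogenase often used as a stem cell marker, rose in untreated cells and not in TGFβ-treated ones at 8 h. It had 0.904, 1.12 and 1.43 TPM in untreated cells at 0 h, 3.99, 3.03 and 3.69 TPM at 8 h, 3.19, 3.62 and 3.00 TPM at 24 h and 2.50, 2.21 and 2.21 TPM at 48 h. With TGFβ it had 0.933, 1.17 and 1.35 TPM at 0 h, 1.12, 1.32 and 1.15 TPM at 8 h, 0.898, 1.13 and 1.02 TPM at 24 h and 0.585, 0.684 and 0.569 TPM at 48 h. From 8 h on every untreated library lay above every TGFβ-treated one. The log2 difference was -1.46 ± 0.12 (SE) at 8 h, -1.71 ± 0.13 at 24 h and -1.97 ± 0.17 at 48 h, with adjusted p-values of 5.62e-09, 1.03e-09 and 4.86e-09. The change of ALDH1A1 from 8 h to 48 h did not pass the threshold (-0.51 ± 0.21, adjusted p = 0.089). Relative to 0 h, ALDH1A1 rose by 1.58 on the log2 scale in untreated cells at 8 h (adjusted p = 6.18e-09), whereas the value in the TGFβ-treated arm was 0.02 (adjusted p = 0.928), and the difference between these changes was -1.56 ± 0.20 (adjusted p = 5.78e-06). ALDH1A1 made up at most 1.22% of the summed ALDH1A TPM in any group mean.

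ALDH1A2 (chr15:57953424-58497866, minus strand), the retinaldehyde dehydrogenase known from embryonic development, gave different answers in counts and in TPM. Its estimated counts were 58, 46 and 66 in untreated and 90, 85 and 105 in TGFβ-treated cells at 24 h, and 92, 51 and 77 against 88, 93 and 93 at 48 h. The fit on counts gave a log2 difference of 0.80 ± 0.15 at 24 h (adjusted p = 0.000177) and 0.59 ± 0.14 at 48 h (adjusted p = 0.00163). The TPM values overlapped at every time point, with means of 2.80 and 3.48 TPM at 24 h and 3.58 and 3.60 TPM at 48 h, and both calls were lost on log2(TPM + 1), where the differences were 0.24 and 0.01 (adjusted p = 0.289 and 0.976), and with length-scaled counts (0.37 and 0.02). The call at 48 h was also lost as a change from 0 h (0.77, adjusted p = 0.0171). Most ALDH1A2 TPM was assigned to transcripts without an annotated coding sequence. Transcripts with one made up 12.9% ± 1.90 (SD, n = 3) of the TPM in untreated cells and 26.3% ± 0.822 in TGFβ-treated cells at 24 h. Their summed level was 0.312, 0.415 and 0.343 TPM against 0.846, 1.03 and 0.870 TPM at 24 h, and 0.516, 0.459 and 0.482 TPM against 0.836, 0.807 and 0.917 TPM at 48 h. The arms did not overlap in this coding part at 24 and 48 h, and they overlapped at 0 and 8 h. For gene totals, libraries of 40.4% (24 h) and 55.2% (48 h) of all tested genes did not overlap. The coding part was looked at after the gene totals were seen and has no test. Without untreated replicate 2 at 48 h the difference in gene counts was 0.47 (adjusted p = 0.013). Exons of ALDH1A2 overlap those of AQP9 and ALDH1A2-AS1 on the other strand, and whether the libraries keep strand is not given in the sources used here. The same limit holds for RARA, whose exons overlap RARA-AS1 among others, and for ALDH1A3, whose exons overlap ALDH1A3-AS1.

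Summed over the 3 ALDH1A genes, the level was 514 TPM ± 10.9 (SD, n = 3) in untreated and 458 TPM ± 35.9 in TGFβ-treated cells at 0 h, and 410 TPM ± 8.02 against 80.8 TPM ± 6.44 at 48 h. ALDH1A3 held between 94.8% and 99.3% of that sum in every group mean. ALDH1A2 held 0.489% of it in untreated cells at 0 h and 4.46% in TGFβ-treated cells at 48 h. Between these 2 groups ALDH1A3, most of the denominator, went from 510 to 76.5 TPM, and ALDH1A2 itself from 2.52 to 3.60 TPM.

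DHRS3 (chr1:12567910-12618210, minus strand), which reduces retinal back to retinol, was higher with TGFβ at all later time points. Untreated cells had 77.9, 65.2 and 68.0 TPM at 0 h, 120, 121 and 123 TPM at 8 h, 141, 120 and 134 TPM at 24 h and 87.8, 88.8 and 88.3 TPM at 48 h. TGFβ-treated cells had 77.9, 60.3 and 66.1 TPM at 0 h, 150, 150 and 158 TPM at 8 h, 193, 167 and 185 TPM at 24 h and 113, 110 and 122 TPM at 48 h. Both arms were highest at 24 h, and from 8 h on their libraries did not overlap. The log2 difference was 0.40 ± 0.09 (SE) at 8 h, 0.49 ± 0.09 at 24 h and 0.39 ± 0.09 at 48 h (adjusted p = 0.00227, 0.00015 and 0.0021). The call at 8 h was lost without untreated replicate 1 (0.39, adjusted p = 0.0109) or TGFβ-treated replicate 3 (0.37, adjusted p = 0.0137) of that time, the call at 48 h without TGFβ-treated replicate 3 (0.35, adjusted p = 0.0136), and both as changes from 0 h (adjusted p = 0.0536 and 0.0344).

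CYP26B1 (chr2:72129238-72147862, minus strand), which clears retinoic acid by oxidation, rose in both arms and was not called between them. Its means were 7.18 TPM ± 1.44 (SD, n = 3), 9.26 ± 0.684, 8.25 ± 1.31 and 11.2 ± 0.696 TPM in untreated cells at 0, 8, 24 and 48 h, and 5.57 ± 0.156, 9.64 ± 0.0298, 11.4 ± 2.30 and 11.3 ± 0.162 TPM in TGFβ-treated cells. Libraries of the arms overlapped at all 4 time points. The log2 change from 0 to 48 h was 0.79 ± 0.11 (SE) without and 0.93 ± 0.11 with TGFβ (adjusted p = 1.99e-06 and 2.55e-07). Between the arms the difference at 8, 24 and 48 h was -0.15, 0.28 and 0.01 (adjusted p = 0.322, 0.032 and 0.964). The result at 24 h depended on 1 library and on the scaling. TGFβ-treated replicate 2 had 8.76 TPM against 12.9 and 12.6 TPM in its partners, and without it the difference was 0.40 (adjusted p = 0.00196). With all libraries it was called with length-scaled counts (0.50, adjusted p = 0.00761). It was also called when scaled to 4 reference genes (0.63, adjusted p = 2.95e-06), which raised the median of all genes. Without the 4 libraries that stood apart, 8 and 24 h were called (-0.15 and 0.29, adjusted p = 0.00931 and 0.000116). No 8 h library was among those left out. At 8 h counts and TPM differed in sign, with mean TPM of 9.26 without and 9.64 with TGFβ.

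CRABP2 (chr1:156699606-156705816, minus strand), the carrier that hands retinoic acid to its receptors, fell with time in both arms and was lower with TGFβ from 8 h on. Untreated cells had 116, 113 and 108 TPM at 0 h, 90.4, 89.0 and 86.6 TPM at 8 h, 64.4, 59.9 and 61.7 TPM at 24 h and 33.4, 34.0 and 34.6 TPM at 48 h. TGFβ-treated cells had 114, 100 and 107 TPM at 0 h, 67.6, 65.3 and 59.5 TPM at 8 h, 43.0, 42.5 and 40.6 TPM at 24 h and 25.9, 25.6 and 24.8 TPM at 48 h. The libraries did not overlap from 8 h on. The log2 difference was -0.41 ± 0.06 (SE) at 8 h, -0.53 ± 0.07 at 24 h and -0.39 ± 0.08 at 48 h (adjusted p = 3.95e-05, 1.83e-06 and 0.000278). At 48 h the call was lost when scaled to 4 reference genes (-0.04, adjusted p = 0.531). These differences are smaller than the fall over time without TGFβ, which was -1.81 ± 0.07 from 0 to 48 h (adjusted p = 2.33e-15).

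**Figure D2:**
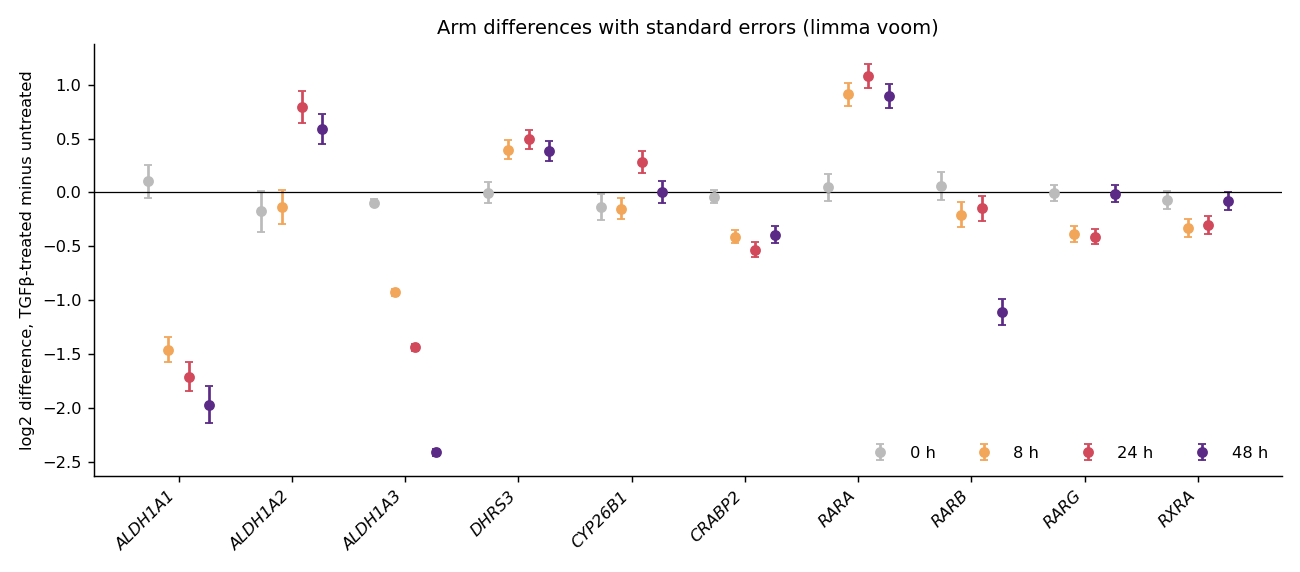
Log2 difference between TGFβ-treated and untreated cells (y axis) for each of the 10 genes (x axis) at 0, 8, 24 and 48 h, from limma voom with standard errors as bars. ALDH1A3 (-2.42 at 48 h, no test) and ALDH1A1 (-1.97) lie lowest, RARA lies near 0.9 to 1.1 from 8 h on, and RARG and RXRA return to near 0 at 48 h, where scaling to 4 reference genes puts them at 0.34 and 0.27.

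Among the receptors, RARA (chr17:40309180-40357643, plus strand), which is expressed in most tissues, rose with TGFβ within 8 h and stayed up. Untreated cells had 13.5, 11.2 and 13.6 TPM at 0 h, 17.6, 17.5 and 15.7 TPM at 8 h, 16.4, 13.7 and 16.4 TPM at 24 h and 19.6, 19.1 and 19.9 TPM at 48 h. TGFβ-treated cells had 12.4, 10.9 and 14.7 TPM at 0 h, 29.0, 29.9 and 27.3 TPM at 8 h, 34.5, 28.5 and 33.3 TPM at 24 h and 34.8, 35.0 and 33.2 TPM at 48 h. From 8 h on the lowest TGFβ-treated library of each time lay above the highest untreated one. The log2 difference was 0.91 ± 0.11 (SE) at 8 h, 1.09 ± 0.11 at 24 h and 0.90 ± 0.11 at 48 h (adjusted p = 1.53e-06, 7.59e-08 and 7.56e-07), and the change of the difference from 0 to 8 h was 0.86 ± 0.17 (adjusted p = 0.000881). The difference at 48 h minus that at 8 h was -0.01 ± 0.15 (adjusted p = 0.973).

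RARB (chr3:24687887-25597932, plus strand), itself a classical target of retinoic acid through the element shown above, differed late. It had 0.781, 0.693 and 0.657 TPM in untreated cells at 0 h, 0.680, 0.827 and 0.750 TPM at 8 h, 0.805, 0.680 and 0.758 TPM at 24 h and 1.39, 1.43 and 1.17 TPM at 48 h. With TGFβ it had 0.706, 0.747 and 0.547 TPM at 0 h, 0.546, 0.584 and 0.619 TPM at 8 h, 0.778, 0.810 and 0.705 TPM at 24 h and 0.631, 0.521 and 0.441 TPM at 48 h. The arms overlapped at 0 and 24 h and were apart at 8 h, by a narrow margin, and at 48 h. The log2 difference was -0.21 ± 0.12 (SE) at 8 h and -0.15 ± 0.12 at 24 h (adjusted p = 0.23 and 0.338) and -1.11 ± 0.12 at 48 h (adjusted p = 1.84e-07). In untreated cells RARB rose by 0.90 ± 0.12 from 0 to 48 h (adjusted p = 8.33e-07), and the value in the TGFβ-treated arm was -0.27 ± 0.14 (adjusted p = 0.0828). Of the RARB TPM at 48 h, RARB-201, which starts just after the element, held 29.0% ± 13.6 (SD, n = 3) without and 28.8% ± 31.8 with TGFβ. RARB-203, with the same start, held 0% and 13.5% ± 12.1. RARB-205, which starts at chr3:25458310, held 47.5% ± 14.4 and 54.9% ± 20.2. These shares rest on few reads and were not tested.

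RARG (chr12:53210567-53232980, minus strand), the RAR of epithelia such as skin, and RXRA (chr9:134317098-134440585, plus strand), the shared partner receptor, were lower with TGFβ at 8 and 24 h and did not pass the test at 48 h. RARG had 28.4, 29.6 and 28.4 TPM in untreated against 19.8, 21.0 and 20.8 TPM in TGFβ-treated cells at 8 h, 33.0, 31.5 and 31.3 against 24.3, 20.3 and 23.8 TPM at 24 h, and 26.3, 24.2 and 22.9 against 25.1, 22.8 and 22.6 TPM at 48 h. The arms were apart at 8 and 24 h and overlapped at 48 h. The log2 difference was -0.38 ± 0.07 (SE) at 8 h and -0.41 ± 0.07 at 24 h (adjusted p = 0.000443 and 0.000117) and -0.01 ± 0.08 at 48 h (adjusted p = 0.93). The RARG call at 8 h was lost as a change from 0 h (-0.38, adjusted p = 0.0152), and the call at 24 h when only the libraries of that time entered the fit (-0.40, adjusted p = 0.0162). The difference at 48 h minus that at 8 h, 0.37 ± 0.10, did not pass the threshold (adjusted p = 0.0133). RXRA had 35.8, 36.7 and 33.6 TPM against 30.0, 28.9 and 26.4 TPM at 8 h, 34.4, 29.4 and 35.2 against 27.5, 21.8 and 26.3 TPM at 24 h, and 31.1, 28.3 and 27.5 against 26.3, 28.3 and 25.7 TPM at 48 h. Its difference was -0.33 ± 0.08 at 8 h and -0.31 ± 0.08 at 24 h (adjusted p = 0.005 and 0.00661) and -0.08 ± 0.09 at 48 h (adjusted p = 0.493).

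The RXRA calls were the least stable of the set. At 8 h the call was lost without any 1 of the 6 libraries of that time (differences from -0.36 to -0.28), as a change from 0 h (-0.26, adjusted p = 0.185) and with length-scaled counts (-0.26, adjusted p = 0.0904). The call at 24 h was also lost as a change from 0 h (adjusted p = 0.179) and without untreated replicate 1 (-0.27, adjusted p = 0.0356), untreated replicate 3 (-0.27, adjusted p = 0.0342), TGFβ-treated replicate 2 (-0.22, adjusted p = 0.0483) or TGFβ-treated replicate 3 (-0.32, adjusted p = 0.0137). Scaling to the 4 genes the study used as qRT-PCR references, of which 3, GAPDH and HPRT1 among them, passed the F-test with lower levels under TGFβ, moved the median of all tested genes from -0.02 to 0.34 at 24 h and from -0.01 to 0.34 at 48 h. On that scale RARG lay at -0.06 and RXRA at 0.05 at 24 h, and at 0.34 and 0.27 at 48 h, which is at or below the shift of all genes.

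The difference at 48 h minus that at 8 h passed the threshold for 1 of the 9 genes, RARB (-0.90 ± 0.17, SE; adjusted p = 0.000451), against 14.1% of all tested genes (6.71% upward, 7.34% downward). Over time without TGFβ, 8 of the 9 differed between 0 and 48 h, against 55.2% of all (28.1% higher, 27.1% lower). RARB, ALDH1A1, CYP26B1, ALDH1A2 and RARA rose, CRABP2, RARG and RXRA fell, and DHRS3 was at 0.28 (adjusted p = 0.0144). In the TGFβ-treated arm it was also 8 of 9, against 58.0% (29.9% higher, 28.1% lower), with RARA, ALDH1A2, CYP26B1 and DHRS3 higher, CRABP2, ALDH1A1, RARG and RXRA lower, and RARB not called. ALDH1A1 was thus called in opposite directions in the arms over 48 h, 0.99 ± 0.14 without and -1.09 ± 0.19 with TGFβ, and the difference between them was -2.08 ± 0.23 (SE; adjusted p = 3.95e-07). Libraries of the arms did not overlap in TPM for 7 of the 9 genes at 8 h (47.5% of all tested genes), for 6 at 24 h (40.4%) and for 5 at 48 h (55.2%), so at 48 h the share among these genes was about that of the whole transcriptome.

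Among the 3 RAR genes, RARA took over from RARG as the larger share with TGFβ. At 0 h RARA made up 24.2% ± 1.56 (SD, n = 3) of the summed RAR TPM in untreated and 24.5% ± 2.07 in TGFβ-treated cells, and RARG 74.5% ± 1.48 and 74.2% ± 1.79. At 8 h RARA stood at 36.4% ± 1.35 without and 57.7% ± 1.36 with TGFβ, and at 48 h at 43.2% ± 1.95 and 58.8% ± 1.27. RARB stayed between 0.906% and 2.93%. The summed level itself was 52.9 and 51.7 TPM at 0 h and 45.4 and 58.4 TPM at 48 h without and with TGFβ. These shares restate the levels above and were given no test.

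**Figure D3:**
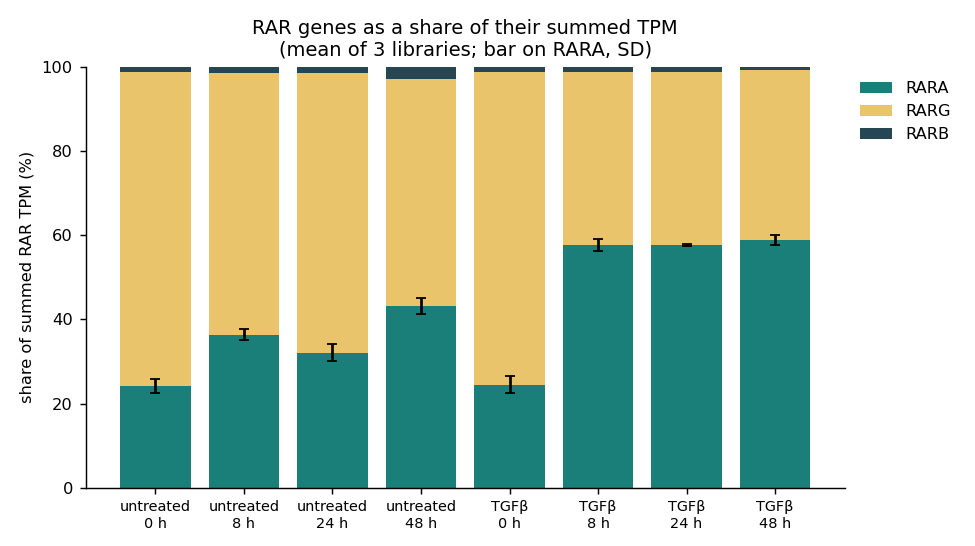
Share of the summed TPM of RARA, RARG and RARB (y axis, percent, bars from 0 to 100) in the 8 groups (x axis), as means of 3 libraries with the SD drawn on RARA. RARA rises from 24.2% to 43.2% in untreated cells and from 24.5% to 58.8% in TGFβ-treated cells between 0 and 48 h.

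Transcripts that made up at least 10% of their gene's TPM in some group were compared where the gene had at least 1 TPM in every group mean, which left out ALDH1A1 and RARB. An exact permutation test, two-sided, exchanged labels within 8, 24 and 48 h (8000 relabellings, smallest possible p 0.00025), and p-values were adjusted over 24 transcripts of 8 genes. RARA-206, which starts at chr17:40318285 behind the second RARA promoter shown and has a shorter coding sequence than RARA-201, was the 1 transcript past the threshold. Its share was 3.11 percentage points higher with TGFβ over 8 to 48 h (exact permutation p = 0.00025, adjusted p = 0.006). The untreated libraries had 23.95, 22.4 and 23.4% at 8 h, 22.6, 22.7 and 22.4% at 24 h and 23.5, 21.0 and 24.6% at 48 h, and the TGFβ-treated ones 25.2, 25.9 and 27.1%, 26.8, 23.6 and 24.1%, and 28.0, 27.9 and 25.9%. The arms also lay apart at 0 h, with 25.3, 23.5 and 23.1% against 25.7, 29.0 and 29.8%. The 0 h means were 23.96% and 28.15%, a wider gap than the 3.11 points called later, and 0 h did not enter the test. With shares of estimated counts the difference was 2.95 points (adjusted p = 0.027). The call was also lost, each time at an adjusted p of 0.012, without untreated replicate 1 or 2 at 24 h, untreated replicate 2 at 48 h or TGFβ-treated replicate 1 or 2 at 48 h.

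Larger shifts of transcript shares did not pass 0.01. RARG-203, the canonical transcript, rose from 28.1% ± 3.68 (SD, n = 3) at 0 h to 50.04% ± 0.891 at 48 h in untreated cells and from 29.4% ± 5.34 to 57.9% ± 1.87 with TGFβ. Its arm difference was 7.56 points over 8 to 48 h (exact permutation p = 0.002, adjusted p = 0.0135). RARG-202 went from 28.9% to 11.9% and from 29.6% to 7.27%. CYP26B1-201, which has the longest coding sequence of the 3 compared CYP26B1 transcripts, had 36.9, 36.3 and 37.3% of the gene's TPM in untreated and 17.2, 18.3 and 17.2% in TGFβ-treated cells at 8 h. Over 8 to 48 h its share was lower with TGFβ (difference -11.8 points; exact permutation p = 0.00225, adjusted p = 0.0135), so the gene total of CYP26B1, which did not differ at 8 h, combined transcripts with unequal shares. Without untreated replicate 3 at 24 h both passed, with 8.90 points for RARG-203 and -13.35 for CYP26B1-201 (adjusted p = 0.004 each), and without untreated replicate 1 at 8 h RARG-201 passed (-5.10 points, adjusted p = 0.009). ALDH1A3-201 stayed between 52.0% and 57.1% of ALDH1A3 in every group mean. In RXRA, between 52.9% and 63.3% of the TPM was assigned to RXRA-201, which has no annotated coding sequence.

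**Figure D4:**
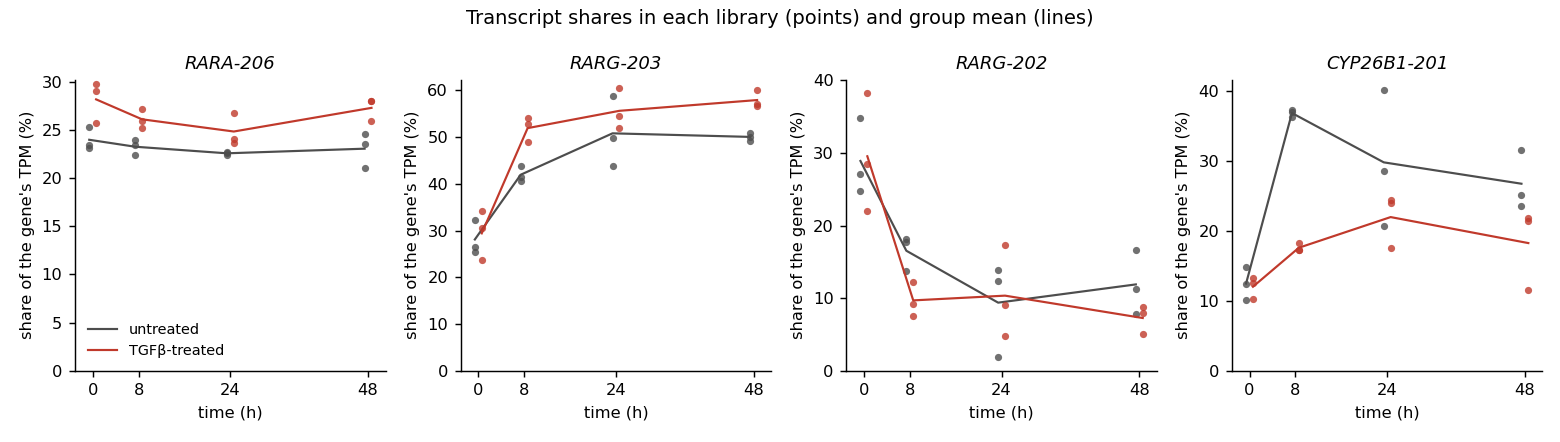
Share of the gene's TPM (y axis, percent, from 0) held by 4 transcripts against time in hours (x axis), with a point per library and a line through group means, untreated in grey and TGFβ-treated in red. RARA-206 is higher with TGFβ at all times, 0 h included, and CYP26B1-201 reaches 36.8% without and 17.6% with TGFβ at 8 h.

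Around these genes, 44 others of the pathway were listed, of which 40 were tested and CRABP1, ADH4, ADH7 and CYP26C1 were too low. The F-test called 23 of the 40, 13 higher and 10 lower with TGFβ, against 42.6% of all tested genes (22 higher and 8 lower when scaled to the 4 reference genes, 10 and 12 when scaled to library totals). Among 8 tested genes of uptake, binding and storage 3 were called, 2 higher, among them the retinol importer STRA6, and 1 lower, BCO1, which cleaves β-carotene. Among 13 oxidoreductases of retinol and retinal 7 were called, 4 higher (RDH10, RDH11, RDH12 and AKR1C3) and 3 lower (DHRS9, SDR16C5 and AKR1B10). Of 2 further clearance genes, CYP2S1 was called higher, and CYP26A1, the best-known retinoic acid-induced hydroxylase, was not (0.65, adjusted p = 0.13). Among 9 receptors and co-factors 6 were called, RXRG lower and 5 higher, among them PPARD, NRIP1, NCOA3 and RXRB. The median difference over the 40 genes was -0.01, against -0.02 over all tested genes.

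STRA6 and RDH10, which bring retinol into the pathway and start its oxidation, were both higher with TGFβ. RDH10, the main retinol dehydrogenase of development, went from 40.8 TPM ± 0.802 (SD, n = 3) to 112 ± 1.41 TPM in untreated cells and from 40.3 ± 2.94 to 231 ± 6.32 TPM with TGFβ between 0 and 48 h. Its log2 difference at 8, 24 and 48 h was 0.56, 1.24 and 1.07 (adjusted p = 2.36e-08, 2.06e-14 and 1.32e-13). STRA6 stood at 49.0 ± 1.95 TPM without and 119 ± 2.66 TPM with TGFβ at 48 h (1.31 ± 0.10, SE; adjusted p = 3.82e-10). RDH11 differed by 0.28 at 24 h and 0.36 at 48 h (adjusted p = 9.73e-06 and 2.95e-07), and RDH12 by 0.97 at 24 h (adjusted p = 0.00209). SDR16C5 and DHRS9 were lower. SDR16C5 had 9.98 ± 0.254 TPM without and 3.97 ± 0.127 TPM with TGFβ at 48 h (-1.29, adjusted p = 1.34e-11). DHRS9 dropped in both arms, from 17.1 to 0.743 TPM without and from 16.2 to 0.301 TPM with TGFβ (-0.93 at 48 h, adjusted p = 0.00155).

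Of 8 genes known to be induced by retinoic acid, 6 passed the F-test, against 42.6% of all tested genes. On average 5 of them were lower with TGFβ (RARRES1, PLAAT4, RARRES2, TNFAIP2 and GPRC5A; 21.6% of all) and TGM2 was higher, while the other 2 were not called. The list was split at 8 h, where 2 genes were called higher (TGM2, 0.86, and GPRC5A, 0.34) and 2 lower (RARRES1 and PLAAT4). Of all tested genes, 9.14% were called higher and 7.28% lower at 8 h. At 48 h 5 of the 8 were called, all lower, GPRC5A by then at -0.68, against 16.2% of all tested genes higher and 16.5% lower. The median difference of the list was -0.78 at 48 h, against -0.01 over all tested genes. RARRES1, a putative tumour suppressor, climbed from 9.91 ± 1.32 (SD, n = 3) to 88.1 ± 3.58 TPM in untreated cells and from 9.33 ± 1.64 to 17.9 ± 0.636 TPM with TGFβ. Its log2 difference at 8, 24 and 48 h was -0.62, -1.40 and -2.24 (adjusted p = 7.41e-06, 3.4e-13 and 2.13e-16). PLAAT4, also known as a retinoid-inducible growth regulator, climbed from 9.12 to 37.0 TPM without and from 8.27 to 11.6 TPM with TGFβ (-1.67 at 48 h, adjusted p = 9.96e-14). RARRES2, which encodes chemerin, stood at 11.6 and 5.94 TPM at 48 h (-0.83, adjusted p = 1.36e-05). DHRS3, CYP26B1 and RARB, members of the set that are also known retinoic acid targets, did not share a direction: DHRS3 was higher with TGFβ, RARB was lower at 48 h and CYP26B1 did not pass. Retinoic acid itself was not measured.

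**Figure D5:**
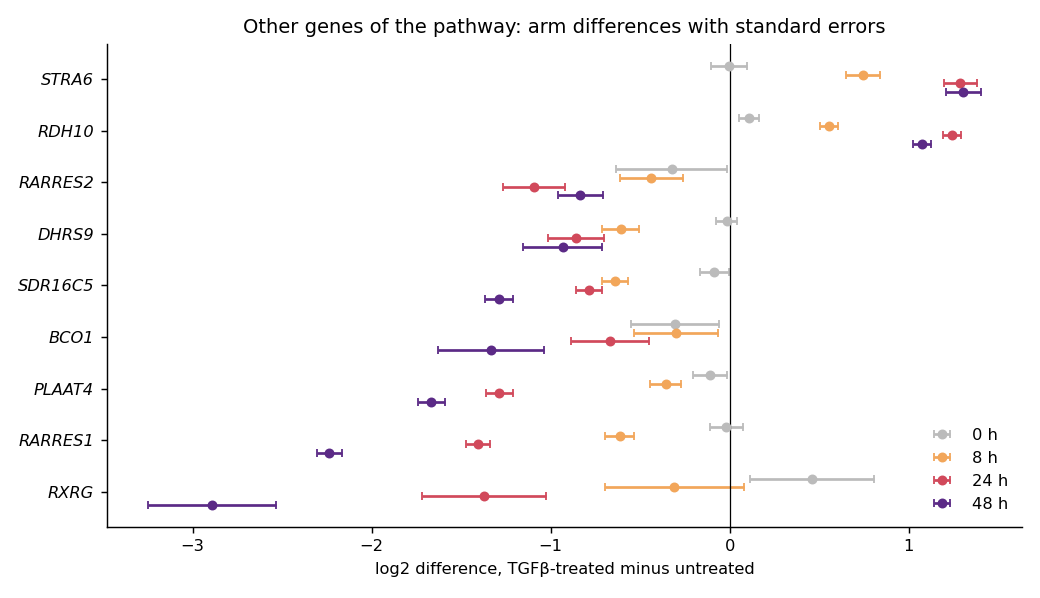
Log2 difference between TGFβ-treated and untreated cells (x axis) at 0, 8, 24 and 48 h for 9 of the 10 other pathway genes with the largest mean difference among those called (y axis), with standard errors as bars. STRA6 and RDH10 lie between 0.56 and 1.31 from 8 h on, and RXRG, RARRES1 and PLAAT4 reach -2.89, -2.24 and -1.67 at 48 h.

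RXRG, BCO1, RDH12, CYP26A1 and, at 48 h, DHRS9 were near the lower limit of what this depth shows. RDH12 had at most 0.986 TPM in a group mean, with 0.790 TPM without and 0.830 TPM with TGFβ at 48 h. CYP26A1 had at most 0.401 TPM in a group mean. DHRS9 at 48 h rested on 28 to 38 estimated counts without and 11 to 16 with TGFβ. RXRG had at most 0.421 TPM in a group mean, and its difference at 48 h was -2.89 ± 0.36 (SE; adjusted p = 9.12e-07). BCO1 had at most 0.726 TPM in a group mean, with a difference of -1.33 ± 0.30 at 48 h (adjusted p = 0.000895).

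The 5 genes whose log2 counts, scaled to library size, followed ALDH1A3 most closely over the 24 libraries, out of 12933 genes with at least 1 TPM in every group mean, were MAL2, a membrane protein of apical transport (Pearson r = 0.977), EPB41L3, a membrane-cytoskeleton adaptor (0.976), TBC1D8 (0.975), SQOR, a mitochondrial sulfide oxidase (0.972), and CCN3, a secreted matricellular protein (0.971). The libraries share their arms and time points, so these values describe likeness of pattern only. MAL2 went from 63.6 to 59.0 TPM in untreated cells and from 65.6 to 9.27 TPM with TGFβ between 0 and 48 h. Within the set, RARA had the most opposite pattern to ALDH1A3 (r = -0.93), and RXRA (0.766), RARG (0.725) and CRABP2 (0.691) the most similar.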

How the data were processed

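RNA-Seq of SK-MES-1 cells covered 24 libraries in 8 groups (both arms at 0, 8, 24 and 48 h, 3 each). The authors sequenced on a HiSeq 4000 and used kallisto 0.43.0 to assign reads to the Ensembl transcriptome (GRCh38; submitters' processing notes and methods), which divides reads that match several transcripts among them. The deposited estimated counts are such expected read numbers, neither normalized nor whole. The deposited TPM values are scaled for transcript length and library total, and replicates were not pooled.

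Transcripts were assigned to genes by identifier with GENCODE release 44. Of 173259 transcripts, 155518 (89.76%) had a gene and 17741 were left out. Counts were added up per gene and rounded, and 17413 genes reaching 10 in 3 or more libraries were tested with limma 3.58.1 (voom, TMM factors from edgeR 4.0.16, R 4.3.3), all libraries in 1 fit with 8 group means, Benjamini-Hochberg adjustment and an adjusted p of 0.01. The F-test covers 8, 24 and 48 h. The study's methods name limma voom but state no contrasts. Differences are log2, TGFβ-treated minus untreated.

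The 10 genes, the gene lists and the tests were chosen with earlier results of these data known, and no list is independent support. Named beside the 10 genes were the 10 other pathway genes past the F-test with the largest mean difference (1 of them is not reported here), the 5 genes most correlated with ALDH1A3, fixed markers, transcripts at 10% or more of their gene, and genes needed to spell out a count. The split of ALDH1A2 by coding sequence was chosen after seeing the values.

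Alternatives were edgeR and DESeq2 1.42.0, limma on log2(TPM + 1) and log2(TPM + 0.1), 4 other scalings, length-scaled counts (from the deposited effective lengths), other count filters, only the libraries of the times compared, a replicate block, the change from 0 h, a threshold of 0.05, each library left out in turn, and, chosen after seeing the data, leaving out the 4 libraries that stood apart. In simulated counts with 200 changed genes among 17202, the F-test recovered 199 and made 2 false calls. The simulated differences were at least 1 in size on the log2 scale and the same at 8, 24 and 48 h. They were placed only in genes above a minimum mean count, and no library was made to stand apart. The simulation therefore does not cover smaller or late differences, which many genes of the set had. Figures were drawn with matplotlib 3.10.9 and tables made with pandas 2.3.3 in Python 3.11.15. Depth ranged from 46613589 to 77964234 estimated counts, so genes under about 100 counts are the least precise.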

Additional observations from a re-analysis of the deposited data

Results flagged for a closer look

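The arm difference changed between 8 and 48 h, by the test of that change itself (limma voom), in 1 of the 9 tested genes of the set and in 6 of the 9 others named, which were picked for large differences, against 14.1% of all tested genes. The change of the log2 difference was -0.90 for RARB, -1.31 for PLAAT4, -1.62 for RARRES1, -2.58 for RXRG, -0.65 for SDR16C5, 0.52 for RDH10 and 0.56 for STRA6. In each of the 7 the later difference was the larger one in size and had the sign of the earlier one. No group had the 4 or more libraries needed for a check of single outlying values.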

How the results depend on the processing

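Over all settings, 359 counts of called genes or transcripts stayed within 1.5 times the reported count and 21 did not. Leaving out 1 library gave 230 of the 359 and 10 of the 21. The measure ignores which genes were called and in which direction, and a count of 6 or more of 9 cannot leave the range upward. At 8 h, 3 of the 9 genes were called as a change from 0 h instead of 6. The count of genes whose arm difference changed from 8 to 48 h, 1 as reported, was 2 with DESeq2, on both TPM scales, with library totals and with the replicate block, 3 when only the 8 and 48 h libraries entered the fit, without the 4 libraries that stood apart and at a threshold of 0.05, and 5 when scaled to 4 reference genes. The count of called transcripts, 1 as reported, was 0 with shares of estimated counts. Leaving out 1 library gave 4 to 6 genes at 8 h, 6 to 7 at 24 h, 5 to 6 at 48 h, 8 to 9 over the course, 1 to 2 for the change from 8 to 48 h, 7 to 9 in untreated cells and 8 in the TGFβ-treated arm from 0 to 48 h, 21 to 25 of the other pathway genes and 0 to 3 transcripts. Scaling to the reference genes turned RARG at 48 h from -0.01 to 0.34 and RXRA from -0.31 to 0.0455 at 24 h and from -0.08 to 0.27 at 48 h, where the median of all genes moved to 0.34; 5 of 9 genes were then higher over the course, and 6 of 8 called genes at 48 h. The RARA, ALDH1A1 and RARB (48 h) differences kept their call in every setting. Same-numbered libraries of the arms deviated together weakly at 0 and 24 h (correlations from 0.063 to 0.255). At 8 and 48 h the correlations ran from -0.062 to 0.099, so whether the numbers mark pairs was not settled. With the replicate block the counts at 8, 24 and 48 h and over the course were 6, 7, 6 and 8, and the shares of all tested genes in that fit are not given here. The causes were not tested. Depth limits RARB, ALDH1A1 and ALDH1A2, which had as few as 31 to 36 counts in a library.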
